A study of Rattus norvegicus with 9 samples.

Results

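The 8 genes Ypel4, Dyrk3, Tent5a, Iqub, Spata2L, Sstr1, Gprc5b and Spag4 were those of rat adrenal zona glomerulosa cells singled out because their transcripts rose more after raised potassium than after angiotensin II (Ang II). They were carried by 14 probe sets with 1 gene symbol, of 20826 such probe sets for 14217 genes on the array. Of the 14, 9 were bright enough to be among the 18625 probe sets tested and 5 were not. The choice of genes used the control, Ang II and potassium signals of these arrays, so their levels and differences are given as a description, without a test. The rule set no minimum size, and the smaller differences between the stimuli on the log2 scale were those of Tent5a (0.58, and 0.57 at its dimmer tested probe set) and Sstr1 (0.65).

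Rat glomerulosa cells, from the outermost zone of the adrenal cortex, were freshly dispersed by enzymes and mechanical force, and each of 3 independent preparations supplied a control, an Ang II and a potassium tube. All tubes stood for 2 h at 37 °C under 5% CO2 in DMEM:F12 with albumin (0.5%, from cattle and free of fatty acids), the control tubes without a stimulus, the others with 100 nM Ang II or with 16 mM potassium. Only 1 dose and 1 time were used, and how many rats made up a preparation is not given in the sources used here. Total RNA of each tube went to 1 Affymetrix Rat Genome 230 2.0 array, so that 9 arrays in 3 groups of 3 limit the precision of every value. A signal is the linear brightness of a probe set, differences are of log2(signal + 16), so that those of dim probe sets are understated, and no signal of 1 probe set is set against that of another.

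Glomerulosa cells make aldosterone, the hormone that makes the kidney retain sodium and excrete potassium. Raised potassium outside the cell depolarises the membrane and opens voltage-gated calcium channels, while Ang II acts through a G protein-coupled receptor that releases calcium from internal stores and activates protein kinase C. Both routes reach calmodulin-dependent kinases and the transcription factor CREB, which binds the cyclic AMP response element (CRE) of many promoters.

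The promoters of the 8 genes were searched because all 8 had been chosen for a larger rise after potassium than after Ang II. The printed ones are the 5 that held a match to a searched motif. RefSeq windows of build GRCr8, from 250 bases before to 50 after the annotated start, were found for 8 of 8 genes. Capitals mark TGACG, the core of the CRE, or its reverse complement CGTCA, and in Ypel4 also the AP-1 motif TGACTCA and in Tent5a the TATA motif TATAAA. The windows lie at chr3:90222612-90222911 on the plus strand for Ypel4, chr3:165040929-165041228 on the plus strand for Spag4, chr19:68182020-68182319 on the minus strand for Spata2L, chr6:81567233-81567532 on the plus strand for Sstr1 and chr8:95109051-95109350 on the minus strand for Tent5a, each printed 5′ to 3′ in the gene's direction.
Ypel4: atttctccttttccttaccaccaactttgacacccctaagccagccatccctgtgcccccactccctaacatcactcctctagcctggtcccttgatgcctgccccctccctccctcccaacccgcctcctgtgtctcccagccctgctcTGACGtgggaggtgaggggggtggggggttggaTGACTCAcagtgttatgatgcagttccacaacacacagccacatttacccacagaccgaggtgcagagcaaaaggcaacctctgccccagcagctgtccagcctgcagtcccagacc
Spag4: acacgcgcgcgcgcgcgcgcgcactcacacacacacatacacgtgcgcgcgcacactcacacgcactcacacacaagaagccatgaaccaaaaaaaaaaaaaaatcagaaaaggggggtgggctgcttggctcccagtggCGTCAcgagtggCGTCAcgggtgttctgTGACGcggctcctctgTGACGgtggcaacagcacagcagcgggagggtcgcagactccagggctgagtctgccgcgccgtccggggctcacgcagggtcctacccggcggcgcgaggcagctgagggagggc
Spata2L: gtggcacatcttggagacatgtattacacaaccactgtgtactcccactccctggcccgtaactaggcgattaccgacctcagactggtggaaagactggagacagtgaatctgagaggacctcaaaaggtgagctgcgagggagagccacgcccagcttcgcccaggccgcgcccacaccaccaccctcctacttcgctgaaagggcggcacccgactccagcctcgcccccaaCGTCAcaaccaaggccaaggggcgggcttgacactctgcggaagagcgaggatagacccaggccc
Sstr1: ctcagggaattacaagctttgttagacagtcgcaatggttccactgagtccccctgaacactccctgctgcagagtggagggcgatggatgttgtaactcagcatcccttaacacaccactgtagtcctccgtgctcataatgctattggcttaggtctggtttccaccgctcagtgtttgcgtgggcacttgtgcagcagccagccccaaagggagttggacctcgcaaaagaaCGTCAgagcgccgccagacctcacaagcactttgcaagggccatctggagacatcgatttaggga
Tent5a: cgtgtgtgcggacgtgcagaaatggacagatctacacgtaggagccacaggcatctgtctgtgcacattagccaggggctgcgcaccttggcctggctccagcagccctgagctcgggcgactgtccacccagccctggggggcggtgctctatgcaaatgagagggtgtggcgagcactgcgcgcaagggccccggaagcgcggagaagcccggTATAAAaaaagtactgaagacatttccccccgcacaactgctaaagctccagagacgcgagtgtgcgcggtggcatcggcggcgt

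Spag4 held 4 CRE cores, with first bases at positions -110, -98, -82 and -66 from the start, 2 on each strand. Ypel4 held 1 CRE core at position -100 and the AP-1 motif at -67. Spata2L and Sstr1 each held 1 CRE core, at position -15 and on the opposite strand in both. The TATA motif of Tent5a began at position -35.

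Both strands were searched, and a window counted once for a motif. The CRE core TGACG was present in 4 of the 8 windows and in 21.2% of all 33469 windows of the same length. The full CRE, TGACGTCA, which always contains that core, was in none of the 8 and in 1.83% of all. The AP-1 motif TGANTCA, which shares no match with the CRE core, was in 1 of 8 and in 7.33% of all, and TATAAA in 1 of 8 and in 14.2%. None of the 8 windows held the NBRE AAAGGTCA, bound by Nr4a receptors (1.43% of all), a CArG box, bound by serum response factor (1.64%), or a MEF2 site (0.565%). The median over the 8 windows was 19.5 CG pairs and 61.6% G and C, against 7 and 51.7% over all windows. Not each window was like this: Ypel4 held 3 CG pairs and Iqub 8, and the share of G and C was 51.3% for Iqub and 53.7% for Sstr1. TGACG itself holds a CG pair and the windows were not matched for CG content, so nothing is read from its share in the 8. A match shows letters only, and binding of a factor was not measured.

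Of 12 genes listed for glomerulosa cells 11 were measured. The list includes steroidogenic genes that are not limited to this zone, among them Hsd3b1, Cyp11a1 and Star. Control means were 25199 for Hsd3b1, 24712 for Cyp11a1 and 11700 for the zonal marker Dab2. The aldosterone synthase gene Cyp11b2 was not analysed here. By limma 1 of the 11 rose after potassium and none fell, with 2.78% and 2.58% of all tested probe sets. That gene was Star (0.34 ± 0.06, adjusted p = 0.0042). After Ang II Star rose (0.29 ± 0.06, adjusted p = 0.024) and Wnt4 fell (-0.32 ± 0.07, adjusted p = 0.022), with 1.66% and 0.532% of all. Wnt4 was higher after potassium than after Ang II (0.41 ± 0.07, adjusted p = 0.0022). Shh had 1.35 ± 0.45 after potassium and did not pass (adjusted p = 0.10). Markers of other cells gave signals as well. Of the fasciculata genes, Akr1b7 had a control mean of 28312 and Cyp11b1 one of 3302 ± 1700 (SD, n = 3). The fasciculata genes Cyp17a1 and Mc2r were not tested. The endothelial receptor gene Kdr had a control mean of 7624. Summed signals of the 7 marker lists overlapped between control, Ang II and potassium tubes, for example 21434 to 27105 for 5 measured endothelial genes in controls and 22834 to 27269 after potassium. By limma, none of the 32 measured markers of other cells passed the test after potassium (3 higher and 1 lower at an unadjusted p under 0.05), and 2 rose after Ang II, Akap12 (0.30 ± 0.07, adjusted p = 0.030) and Acta2 (0.40 ± 0.10, adjusted p = 0.049). The control array of preparation 2 stood apart, with a median signal of 172.9 over all probe sets against 128.0 to 143.6 on the other 8 arrays, and its value was the highest of the controls for 40.9% of tested and 57.4% of untested probe sets. For the 8 genes and for Ndufa5, described last, the differences from control are given with and without it.

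After potassium, 8 of the 9 tested probe sets of the 8 genes had all 3 potassium signals above all 3 control signals, where 7.84% of all tested probe sets did. They were the same 8 probe sets, 1 per gene, whose potassium signals all lay above the Ang II signals, as 9.06% of all tested probe sets did. After Ang II, 4 of the 9 lay above all controls, with 7.3% of all tested probe sets. Since the genes were chosen on these contrasts, the shares are stated and nothing is read from them. In whole-cell RNA a change in the share of a cell type and a change in RNA per cell cannot be told apart, and the part of either in these rises was not tested.

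**Figure D1:**
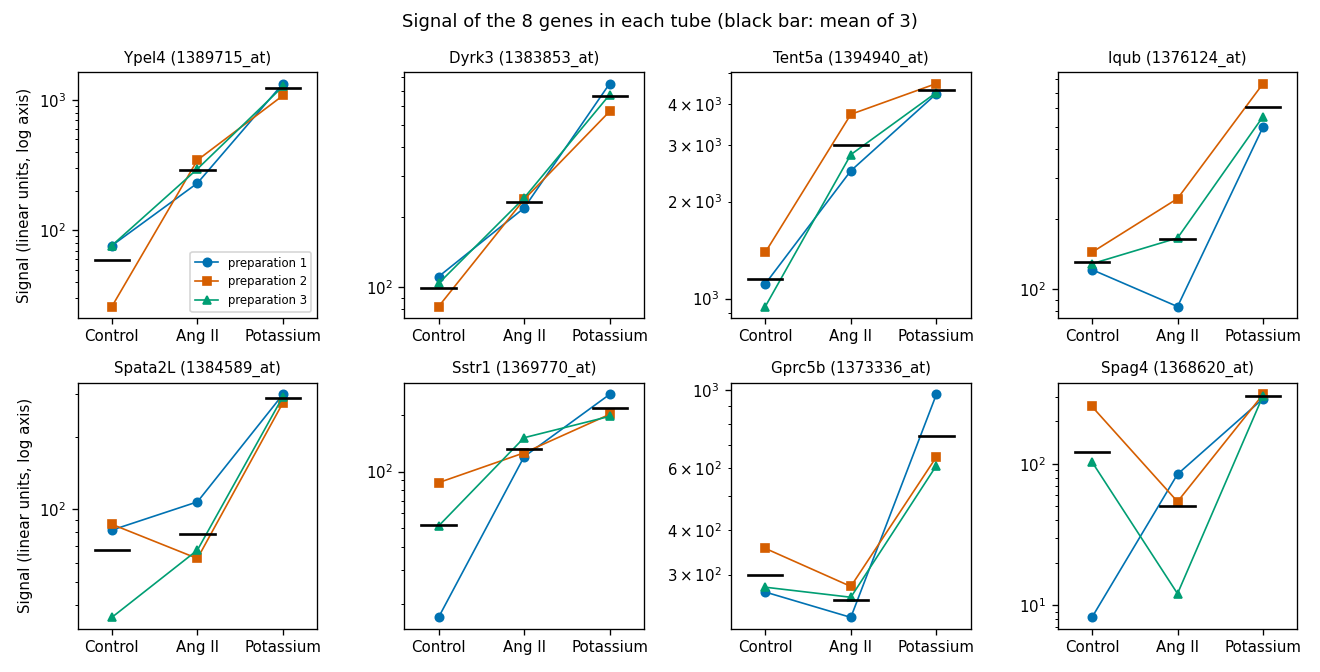
Signal (linear units on log axes that differ between panels) of the probe set of each gene that rose, in control, Ang II and potassium tubes. Coloured lines join the 3 tubes of a preparation and black bars are the means of 3. All 3 potassium signals lie above all others in each of the 8 panels, while Ang II signals lie between the other groups in 4 panels (Ypel4, Dyrk3, Tent5a, Sstr1) and overlap the controls in the rest.

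Ypel4 encodes a small zinc-binding protein of the yippee family, which is conserved from yeast to mammals. Its signal (probe set 1389715_at) was 76.3, 26.0 and 76.5 in the control tubes of preparations 1, 2 and 3, 230.4, 346 and 296 after Ang II, and 1341, 1086 and 1276 after potassium. The 3 groups were fully separated, with the Ang II tubes between the others. The fitted log2 difference was 4.13 ± 0.24 (SE, n = 3 preparations) for potassium against control, a 17.5-fold change. For Ang II against control it was 2.09 ± 0.24, and for potassium against Ang II 2.04 ± 0.24. Each SE of a log2 difference in this report is limma's moderated value, drawn toward the trend over all tested probe sets. It is shared by the 3 comparisons and is not the spread between preparations. For Ypel4 that spread (SD) was 0.51 for potassium and 0.90 for Ang II against control. The potassium difference was the highest of all 18625 tested probe sets and that of Ang II was at rank 5. The low signal of 26.0 was on the control array that stood apart, and without that array the potassium and Ang II differences were 3.73 and 1.69.

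Dyrk3 encodes a dual-specificity kinase that dissolves protein and RNA condensates such as stress granules. Its signals (1383853_at) were 111, 82.3 and 103 in controls, 219, 238 and 242 after Ang II, and 753, 571 and 674 after potassium. The groups were again separated in the order control, Ang II, potassium. The potassium difference was 2.57 ± 0.17 (5.94-fold, rank 3) and nearly the same in each preparation, at 2.60, 2.58 and 2.53. The Ang II difference was 1.12 ± 0.17 (2.18-fold), and potassium exceeded Ang II by 1.45 ± 0.17. The differences of potassium and Ang II from control were 2.51 and 1.06 without the control array of preparation 2.

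Tent5a encodes a poly(A) polymerase that lengthens the tails of messenger RNAs, known from mRNAs of secreted proteins in bone-forming cells. Its bright probe set (1394940_at) gave 1110.5, 1391 and 944 in controls, 2491, 3728 and 2796 after Ang II, and 4318, 4645 and 4357 after potassium. Potassium stood 1.95 ± 0.10 above control (3.87-fold), Ang II 1.37 ± 0.10 (2.59-fold), and the stimuli differed by 0.58 ± 0.10, a small gap beside most of the other genes. Leaving out the control array of preparation 2 gave 2.00 for potassium and 1.42 for Ang II. In preparation 2 the gap was 0.32, against 0.79 and 0.64 in the other preparations. The groups did not overlap.

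The other probe sets of Tent5a did not show this order. At 1394695_at, also tested, the signals were 87.2, 278 and 235 in controls, 88.9, 262 and 138 after Ang II, and 219, 219 and 251 after potassium. The groups overlapped, and the log2 differences were 0.32 ± 0.27 for potassium and -0.25 ± 0.27 for Ang II (0.44 and -0.14 without the control array of preparation 2). The third probe set, 1381932_at, was below the limit for testing, with signals from 30.9 to 110.4 in controls and from 54.0 to 66.8 after potassium. The rise described for Tent5a therefore rests on its brightest probe set. Which part of the transcript each probe set reads is not given in the sources used here.

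Spata2L is the paralog of Spata2, whose product brings the deubiquitinase CYLD to the linear ubiquitin ligase. Its tested probe set (1384589_at) gave 81.8, 86.5 and 35.5 in controls, 107, 62.4 and 67.6 after Ang II, and 300.0, 277 and 294 after potassium. Control and Ang II tubes overlapped while the potassium tubes were all higher and close together. The differences were 1.93 ± 0.29 for potassium (3.82-fold), 0.21 ± 0.29 for Ang II (1.16-fold) and 1.72 ± 0.29 between the stimuli. The differences from control became 2.19 and 0.47 without the control array of preparation 2. At the 2 untested probe sets of the gene, 1381230_at and 1392622_at, no rise was seen, with potassium signals from 44.9 to 65.4 and from 25.3 to 45.1 against control signals from 49.2 to 115.7 and from 22.0 to 69.8.

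**Figure D2:**
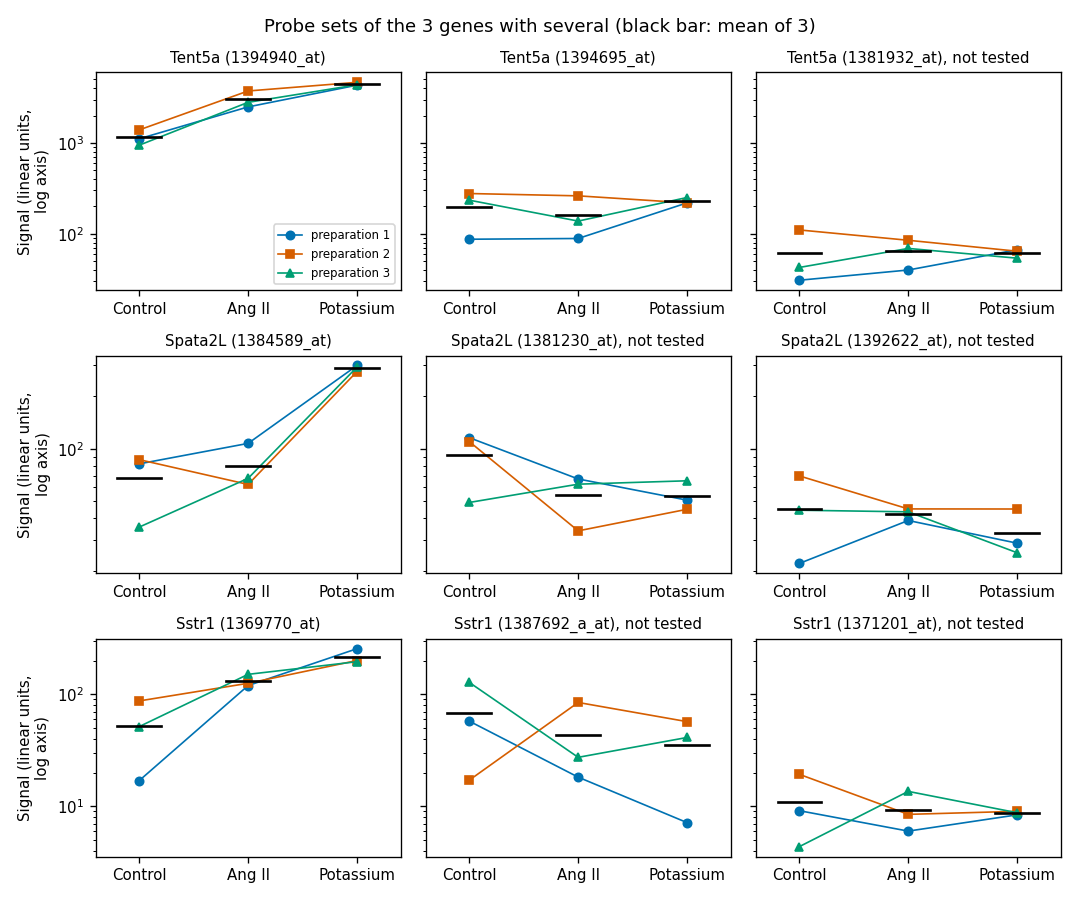
Signal (linear units, log axes shared within a row) of each probe set of Tent5a, Spata2L and Sstr1 in control, Ang II and potassium tubes, with lines joining a preparation and black bars at the mean of 3. Only in the left panels, which hold the probe set with the highest mean of each gene, do all potassium signals lie above all control signals, and 5 of the other 6 probe sets were too dim to be tested.

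Among the 8 genes, 2 encode membrane receptors. Sstr1 encodes a somatostatin receptor, which couples to inhibitory G proteins and restrains hormone secretion in many endocrine cells. Its tested probe set (1369770_at) gave 16.9, 87.3 and 51.5 in controls, 119.8, 126 and 151 after Ang II, and 256, 201 and 196 after potassium. The groups were ordered without overlap, but the controls were far apart. Potassium stood 1.92 ± 0.34 above control (3.79-fold), with 3.05, 1.07 and 1.65 in the preparations, and Ang II 1.27 ± 0.34 above it (2.41-fold). The gap between the stimuli was 0.65 ± 0.34 and fell to 0.28 without the potassium array of preparation 1. Without the control array of preparation 1 the potassium and Ang II differences were 1.45 and 0.79, and without that of preparation 2 they were 2.34 and 1.69. The other probe sets of Sstr1, 1371201_at and 1387692_a_at, were too dim to be tested, with signals from 4.35 to 19.3 and from 7.13 to 127.9 over the 9 arrays, and showed no order of the groups.

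Gprc5b encodes an orphan receptor of the class C family, related to receptors induced by retinoic acid. Its signals (1373336_at) were 268, 356 and 276 in controls, 227, 278 and 259 after Ang II, and 972, 647 and 611 after potassium. In each preparation the Ang II tube was the lowest of the 3, and the control and Ang II groups overlapped. The potassium difference was 1.25 ± 0.18 (2.37-fold), with 1.80 in preparation 1 and 0.83 and 1.10 in the others. For Ang II it was -0.22 ± 0.18, and between the stimuli 1.46 ± 0.18. Without the control array of preparation 2, the Ang II difference was -0.08 and that of potassium 1.38.

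Iqub and Spag4 encode parts of cell structures best known from sperm and ciliated cells. The Iqub protein has a calmodulin-binding IQ motif and a ubiquitin-like domain and belongs to the radial spokes of cilia. Iqub signals (1376124_at) were 121, 144 and 128 in controls, 83.9, 245 and 166 after Ang II, and 499, 768 and 554 after potassium. The controls and the potassium tubes were each compact, and the Ang II tubes spread from below to above the controls. Potassium stood 2.06 ± 0.21 above control (4.17-fold) and 1.87 ± 0.21 above Ang II. The Ang II difference was 0.19 ± 0.21 (1.14-fold), with -0.46, 0.71 and 0.33 in the preparations. Without the control array of preparation 2 the potassium difference was 1.87 and that of Ang II 0.01.

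Spag4 encodes a SUN-domain protein of the nuclear envelope. Its signals (1368620_at) were 8.19, 255 and 103 in controls, 84.6, 54.1 and 12.1 after Ang II, and 290.3, 311 and 304 after potassium. The potassium tubes were alike, with a mean of 302 ± 10.6 (SD, n = 3), while the controls spread from near 0 almost to the potassium level. The log2 difference of potassium from control was 1.79 ± 0.59, made up of 3.66, 0.27 and 1.42 in the preparations. It was 0.64 without the control array of preparation 1 and 2.49 without that of preparation 2. The Ang II difference, -0.66 ± 0.59, held values of 2.06, -1.95 and -2.09 and was 0.04 without the control array of preparation 2 and -1.81 without that of preparation 1. Potassium exceeded Ang II by 2.45 ± 0.59, and by 1.73 with a pseudocount of 64. The level before stimulation, and with it the size of the rise, is thus the least certain of the 8 genes.

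**Figure D3:**
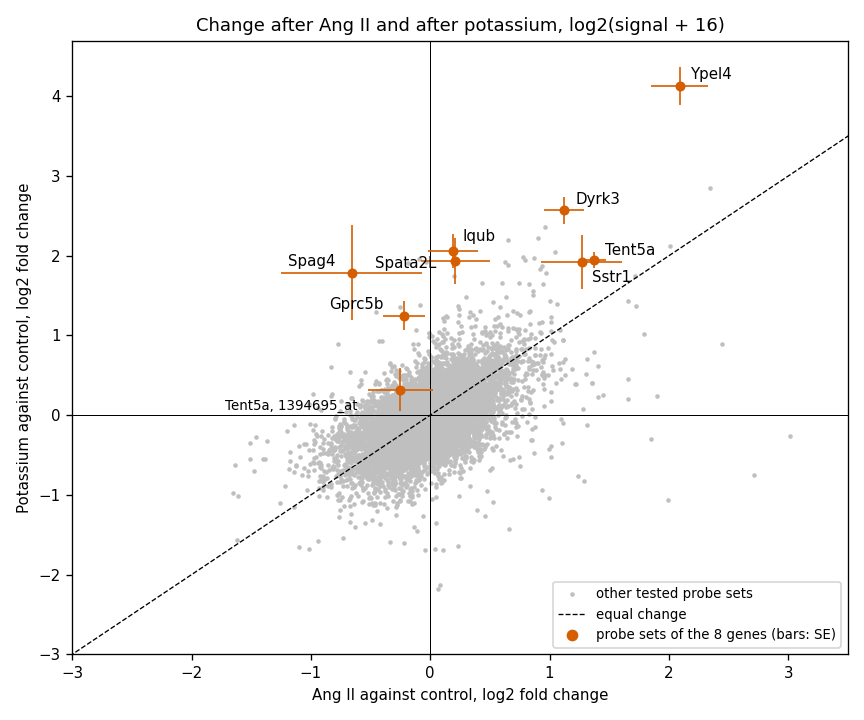
Fitted log2 fold change on log2(signal + 16) after potassium (y axis) against that after Ang II (x axis), both against the same control arrays, for the tested probe sets. Grey points are other probe sets, orange points with SE bars those of the 8 genes, and the dashed line marks equal change. Ypel4 is farthest up at 4.13, all 9 orange points lie above the dashed line, and Iqub, Spata2L, Gprc5b, Spag4 and the second Tent5a probe set lie near or left of 0 on the x axis.

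Set side by side, each by its brightest tested probe set, the genes fell into 2 patterns. For Ypel4, Dyrk3, Tent5a and Sstr1 the Ang II tubes lay between control and potassium without overlap, as for 0.671% of all tested probe sets, with Ang II differences from 1.12 to 2.09. For Iqub, Spata2L, Gprc5b and Spag4 the Ang II and control tubes overlapped, with Ang II differences from -0.66 to 0.21. They also overlapped at the dimmer tested probe set of Tent5a (-0.25). Of all tested probe sets, 7.3% had every Ang II signal above every control signal, so nothing is read from the overlap. The order of the potassium differences was Ypel4 (4.13), Dyrk3 (2.57), Iqub (2.06), Tent5a (1.95), Spata2L (1.93), Sstr1 (1.92), Spag4 (1.79) and Gprc5b (1.25). From Iqub to Spag4, neighbours in this order differed by less than the larger of their standard errors. The median over the 9 tested probe sets was 1.93 after potassium and 0.21 after Ang II, against -0.02 and -0.03 over all tested probe sets.

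The profiles of the 8 genes over the 9 arrays, each centred within its preparation, had Pearson correlations from 0.38 for Tent5a and Spag4 to 0.99 for Ypel4 and Dyrk3, with a median of 0.79 over 28 pairs. These points share arrays and groups, and the correlations describe only the relative heights of the tubes, not the size of a change. The 8 genes were chosen on the same signals for a larger rise after potassium. Correlations above 0 follow in part from that choice, and nothing is read from them. The other genes whose profile was most like the mean of the 8 were Msx1 (r = 0.996), Bag3 (0.992), Slc25a30 (0.991), Nr4a2 (0.983), Lmbrd1 (0.983), Fam13c (0.980), Smim3 (0.980) and Slc66a2 (0.979), each over 9 arrays. Each gene is given by its tested probe set with the highest r. Slc25a30, Nr4a2, Lmbrd1 and Fam13c each had 1 other tested probe set, which was not used for this. Likeness in pattern did not mean likeness in size. After potassium, Slc66a2 stood 0.24 ± 0.07 above control and Msx1, a homeobox factor, 0.61 ± 0.12. The mitochondrial carrier gene Slc25a30 stood 1.99 ± 0.13 above control, and this probe set of the nuclear receptor gene Nr4a2 2.36 ± 0.11. The matching Ang II differences were 0.11, 0.17, 0.78 and 0.97.

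Relatives of the 8 genes were examined to see whether whole families moved, with limma's adjusted p over all 18625 probe sets. Of 57 genes in 8 lists of family members and partners, 31 were measured, each by its brightest tested probe set. After potassium, 1 of the 31 rose (Sstr2) and 1 fell (Papolg), with a median log2 difference of -0.02, where 2.78% of all tested probe sets rose and 2.58% fell. After Ang II, 1 rose (Papola) and none fell, with 1.66% and 0.532% of all rising and falling, and between the stimuli 1 was higher after potassium (Sstr2) and 1 lower (Ypel5), with 1.7% and 3.09% of all.

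The somatostatin receptor gene Sstr2 was the relative that rose. Its signals (1368782_at) were 458, 383 and 621 in controls, 380.5, 519.5 and 564 after Ang II, and 649, 799.9 and 1008 after potassium, and potassium was the highest tube in each preparation. The potassium difference was 0.74 ± 0.13 (1.66-fold, adjusted p = 0.0041) and that from Ang II 0.72 ± 0.13 (adjusted p = 0.0048), while the Ang II difference was 0.01 ± 0.13 (adjusted p = 0.98). The potassium call ended without the preparation block (adjusted p = 0.071) and without a trend of variance (0.076), with a range from 0.001 to 0.076 over all 20 settings. The call against Ang II ended in these settings too and without preparation 1 (0.061) or preparation 3 (0.060). A second tested probe set, 1371174_s_at, had 0.51 ± 0.18 and did not pass (adjusted p = 0.12). Sstr3, the other receptor of the family that was measured, had -0.64 ± 0.25 (adjusted p = 0.17).

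Of the poly(A) polymerases, Papolg, a nuclear enzyme that adds tails to new transcripts, fell after potassium (-0.76 ± 0.17, adjusted p = 0.013), a call lost in 6 of 20 settings (adjusted p up to 0.17). These were the fit without a variance trend and those without control array 1 or 3, without potassium array 3 or without preparation 1 or 3. Its relative Papola rose after Ang II (0.31 ± 0.07, adjusted p = 0.033), lost in 13 settings (up to 0.27), among them each left-out control or Ang II array. Tent5c, of the same subfamily as Tent5a, had 0.35 ± 0.15 after potassium (adjusted p = 0.23). Ypel5 had 0.25 less on the log2 scale after potassium than after Ang II (-0.25 ± 0.07, adjusted p = 0.044), lost in 14 settings (up to 0.37), among them each left-out Ang II or potassium array, and Ypel3 had 0.08 ± 0.11 against control (adjusted p = 0.77).

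None of 6 measured DYRK and HIPK kinases passed a test by limma, and none had an unadjusted p under 0.05 in any comparison. Dyrk1a had 0.19 ± 0.12 and Dyrk2 0.09 ± 0.12 after potassium. Spata2, the paralog of Spata2L, had 0.70 ± 0.29 (adjusted p = 0.20) and Cyld and the linear ubiquitin ligase genes had values from -0.18 to -0.06. Gprc5c had 0.44 ± 0.25 and Gprc5a -0.09 ± 0.16. The measured SUN and KASH proteins of the nuclear envelope lay between -0.19 and 0.11, and Rsph9, the 1 radial spoke gene measured, had -0.19 ± 0.17. In these groups no gene passed the adjusted threshold in any comparison. At an unadjusted p under 0.05 Spata2 was higher after potassium than in controls, while the linear ubiquitin genes Rbck1 (-0.56 ± 0.14, adjusted p = 0.060) and Sharpin (-0.32 ± 0.12, adjusted p = 0.23) were lower after Ang II, and Rbck1 was higher after potassium than after Ang II (0.40 ± 0.14, adjusted p = 0.15).

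**Figure D4:**
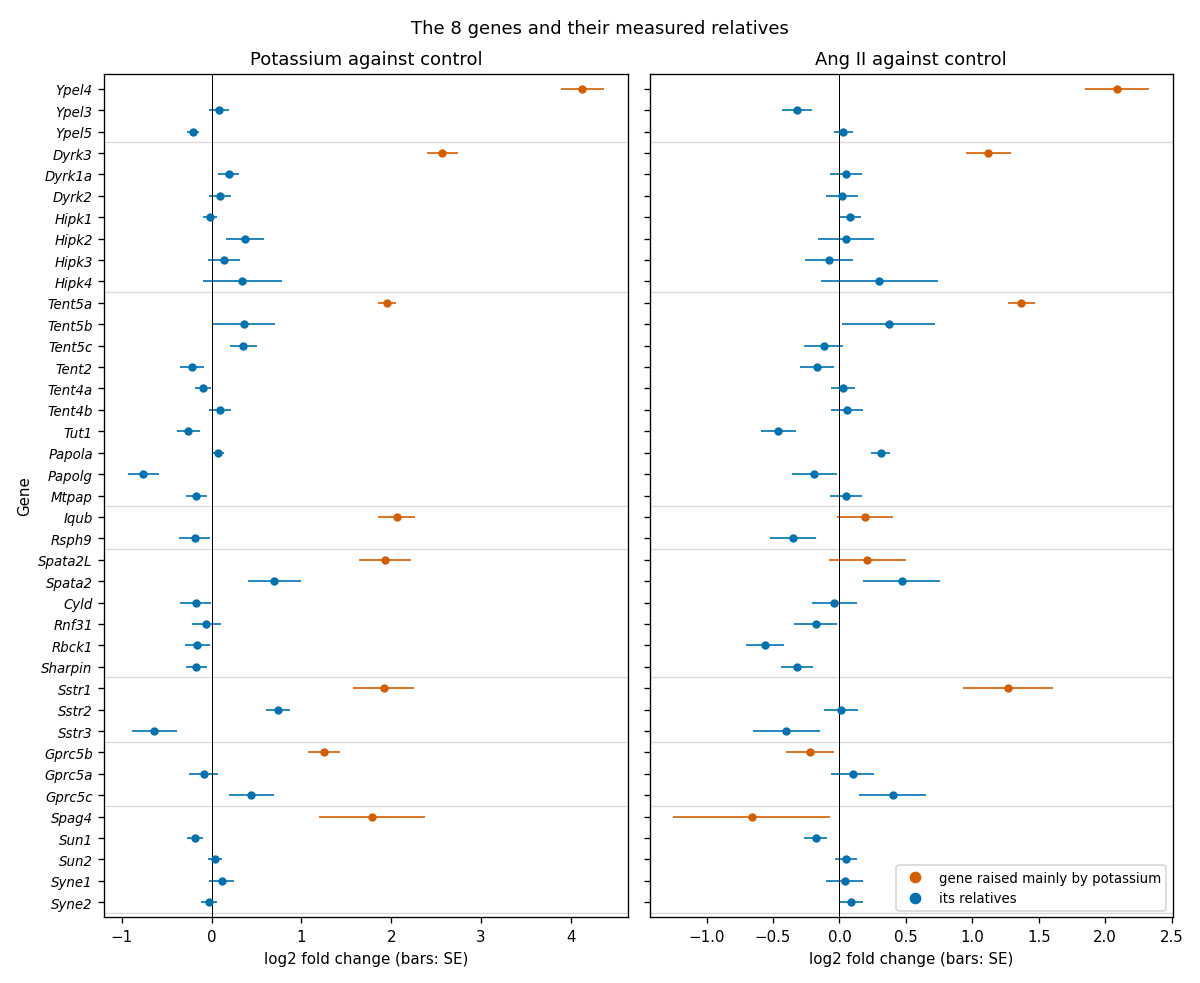
Fitted log2 fold change (x axis, bars: SE) of the 8 genes (orange) and their measured relatives (blue) for potassium and for Ang II against the same controls, grouped by family. Each gene is shown by its brightest tested probe set, and the x axes of the panels differ. After potassium the 8 genes lie between 1.25 and 4.13 and the relatives between -0.76 and 0.74. Only the 8 genes were chosen by their rise, so nothing is read from the gap.

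The genes next to the 8 on the chromosome were looked up after the values had been seen. Of 16 neighbours in the RefSeq order, 9 were tested, and 1 passed a test in limma. It was higher after potassium than in controls and than after Ang II, as 2.78% and 1.7% of all tested probe sets were. The gene that passed was Ndufa5, a subunit of respiratory complex I, which precedes Iqub on the same strand. Ndufa5 is also among the 18 other named genes of the closing section, which were selected by their values. Its signals (1386951_at) were 1229, 688 and 1384 in controls, 1139, 1279.9 and 1224 after Ang II, and 4084, 3412 and 3318 after potassium, with no overlap between potassium and the other tubes. The potassium difference was 1.75 ± 0.16 (3.37-fold, adjusted p = 6.2e-06), that from Ang II 1.55 ± 0.16 (adjusted p = 3.1e-05) and that of Ang II from control 0.20 ± 0.16 (adjusted p = 0.64). Both potassium calls held in all 20 settings, with adjusted p up to 0.025 and 0.043. Without the control array of preparation 2 the difference from control was 1.45 for potassium and -0.10 for Ang II. The other 34 measured complex I genes lay between -0.28 and 0.47 after potassium, with a median of 0.02. Of them 1 was called higher and 1 lower, with 2.78% and 2.58% of all tested probe sets. Whether the probe sets of Iqub and Ndufa5 read 1 transcript or separate ones was not tested.

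**Figure D5:**
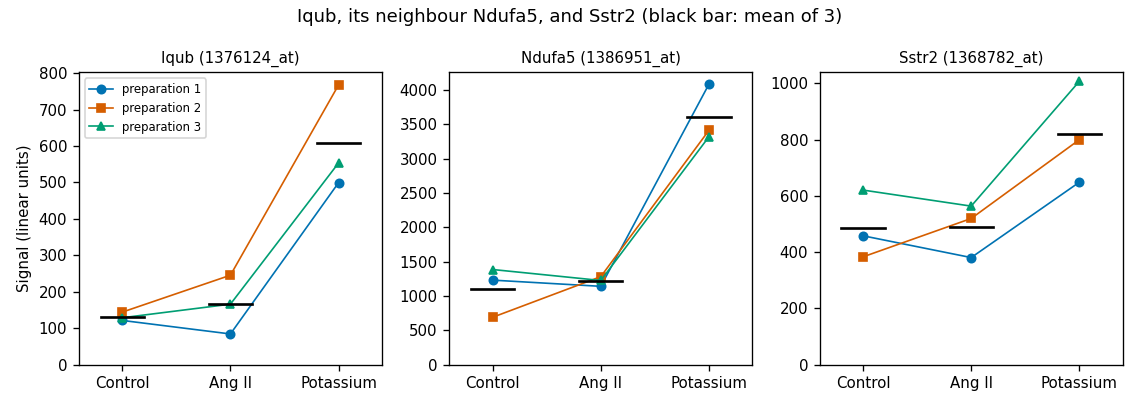
Signal (linear units from 0, y axes differ) of Iqub, of its neighbour Ndufa5 and of Sstr2 in control, Ang II and potassium tubes, with lines joining a preparation and black bars at the mean of 3. For Iqub and Ndufa5 the 3 potassium signals lie far above all others. For Sstr2 they lie above the others within each preparation, with 649 as the lowest.

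Known targets of CREB and calcium signals, none of them among the 8 genes, gave the wider setting. They were listed by hand with earlier results of these data known, so their counts and p-values are no independent test of the list. Of 34 listed, 28 were measured. After potassium 15 rose and 2 fell, where 2.78% of all tested probe sets rose and 2.58% fell, and the median was 0.46 against -0.02 over all. After Ang II 17 rose and none fell, with 1.66% and 0.532% of all, and the median was 0.44 against -0.03. Between the stimuli 9 were higher after potassium and 3 lower, with 1.7% and 3.09% of all. Rgs2, which limits signalling by Gq-coupled receptors, stood at 1.66 ± 0.07 after potassium (adjusted p = 3.1e-09) and at 0.43 ± 0.07 after Ang II (adjusted p = 0.0039). The neurotrophin gene Bdnf stood at 1.66 ± 0.13 and 0.75 ± 0.13, the brighter probe set of Nr4a2 at 1.94 ± 0.14 and 0.79 ± 0.14, and the AP-1 gene Junb at 1.11 ± 0.08 and 0.46 ± 0.08, all 3 higher after potassium than after Ang II at these, their brightest, probe sets. Egr4, a zinc-finger factor, went the other way, lower after potassium (-0.83 ± 0.10) and higher after Ang II (1.29 ± 0.10).

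Genes of calcium entry and of the signalling from calcium to CREB, MEF2 and NFAT showed no call. By limma, none of the 30 measured of 37 listed passed in any comparison. At an unadjusted p under 0.05 there were 1 higher and 3 lower after potassium and 2 lower after Ang II. Between the stimuli 2 were higher after potassium and 2 lower. Rcan1, a calcineurin inhibitor that NFAT induces, had 0.26 ± 0.09 after potassium (adjusted p = 0.14). The T-type calcium channel gene Cacna1h had -0.50 ± 0.21 (adjusted p = 0.20), and the background potassium channel gene Kcnk3 0.19 ± 0.13 (adjusted p = 0.46). Against Ang II, Kcnk3 had 0.33 ± 0.13 after potassium (adjusted p = 0.19).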

How the data were processed

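The deposited table held 1 linear intensity per probe set and array, made by the authors with GCOS, the array maker's software, per the submitters' processing notes, while version, background method and probe set summary were not given in the sources used here. Its mean without the lowest and highest 2% was 500.17 to 500.19 on each array. Of 31099 probe sets, 57 controls were left out. Gene names came from the platform annotation, and RefSeq (GRCr8) gave current symbols, promoters and neighbours.

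On log2(signal + 16), probe sets with a mean above the 40th percentile (18625) were fitted by limma (version 3.58.1, R 4.3.3, with lmFit and with eBayes under an intensity trend), with 3 groups and the preparation as a block. Benjamini-Hochberg adjustment ran over all tested probe sets, with a threshold of 0.05. The fit was tested on simulated data.

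The preparations pair the arrays per the labels. Deviations from group means correlated at 0.09 to 0.27 within and at -0.21 to 0.05 between preparations.

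The 8 genes and the 17 gene lists were chosen with earlier results of these data known. Named from each list were up to 4 genes with the smallest p for potassium against control and up to 2 for potassium against Ang II, besides all probe sets of the 8 genes and the 8 most similar profiles. Relatives that passed, Dab2, Hsd3b1, Cyp11a1, Ndufa5 and the genes of the closing section were named after their values were seen. Pseudocount, filter, scaling, variance trend, block and left-out arrays were varied.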

Additional observations from a re-analysis of the deposited data

How the results depend on the processing

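Over the 20 settings, some of which change the test but not the difference, the potassium difference was at least 3.42 for Ypel4 and ran from 2.16 to 2.74 for Dyrk3, 1.84 to 2.08 for the brighter tested probe set of Tent5a, 1.76 to 2.26 for Iqub, 1.45 to 2.19 for Spata2L, 1.32 to 2.35 for Sstr1, 0.97 to 1.45 for Gprc5b and 0.64 to 2.54 for Spag4. With the filter at the 60th percentile Spata2L, Sstr1, Spag4 and the dimmer tested probe set of Tent5a were no longer tested and gave no value. Between the stimuli Sstr1 ran from 0.28 to 0.88. The number of probe sets called was 998 for potassium against control, 409 for Ang II against control and 892 for potassium against Ang II. Without a variance trend these were 258, 38 and 156, and without the replicate block, that is without the preparation in the model, 506, 197 and 442. Leaving out an array or preparation gave 439 to 975, 145 to 445 and 278 to 1009. Scaling each array to the common median gave 557 between the stimuli and moved the split of higher and lower calls to 722 and 177 (main 518 and 480) after potassium and to 431 and 33 (main 310 and 99) after Ang II, as the median difference of all probe sets moved from -0.02 to 0.10 and from -0.03 to 0.09. The causes were not tested. Of the 31 relatives, 2, 1 and 2 were called in the 3 comparisons in that order. Without a variance trend none was called in any, and without the replicate block 1, 0 and 0. With no filter on low values 0 were called after Ang II and 1 between the stimuli, and with a filter at the 60th percentile 2 and 4. Quantile normalization gave 0 after Ang II, and scaling to the median 1 between the stimuli. Left-out arrays or preparations gave 1 to 2, 0 to 2 and 0 to 3. Without the block the calls of Sstr2, Papola and Ypel5 were lost and those of Papolg and Ndufa5 were not. The number of arrays and the dimness of 5 of the 14 probe sets, which were not tested, limit what can be said.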

Other observations

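Other transcripts shared the narrower pattern of Iqub, Spata2L and Gprc5b. At least a 2-fold rise after potassium with under a 1.25-fold change after Ang II in either direction was found for 28 of the tested probe sets (0.15%). Of these, 3 belonged to the 8 genes, 18 to other named genes and 7 had no single gene symbol. The helix-loop-helix factor gene Scx went from a control mean of 725 ± 114 to 674 ± 48.9 after Ang II and 2857 ± 445 after potassium (SD, n = 3). Calca, which encodes calcitonin and calcitonin gene-related peptide, went from 88.6 ± 44.0 to 78.0 ± 47.3 and 369 ± 130.0. Dgat1, the enzyme of the last step of triglyceride synthesis, stood at 1073 ± 122, 1062 ± 90.7 and 2204 ± 138, and the elongation factor gene Ell2 at 779 ± 68.9, 929 ± 126 and 1993 ± 142. Tdp2, a DNA repair phosphodiesterase, was 2.27-fold higher after potassium and 1.08-fold after Ang II. These genes were selected by their values, so no test is given.

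Crem, a CREB-family gene with an inducible short product, differed between its probe sets. At 1369738_s_at its log2 difference was 1.22 ± 0.12 after potassium and 0.11 ± 0.12 after Ang II (SE, n = 3 preparations). At the probe set with the highest signal, 1378925_at, it was 0.69 ± 0.08 and 0.45 ± 0.08. Which Crem transcripts each reads is not given in the sources used here.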
